A study of Mus musculus with 4 samples.

Results

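Endothelial nuclei, the nuclei of the cells that line blood vessels, were examined in single-nucleus transcriptomes of the mouse brain 21 days post-injury (dpi). Nuclei were chosen by their own counts of unique molecular identifiers (UMIs, each standing for 1 captured transcript). A nucleus was taken as endothelial if it was not among the lowest 2.5% of all barcodes by UMIs and had at least 4 summed UMIs of Flt1, Mecom, Ptprb, Adgrl4, Cldn5 and Egfl7 with at least 2 of these 6 genes seen, fewer UMIs of the mural genes Rgs5, Notch3, Abcc9 and Myh11 than that sum, and at most 1 UMI of Csf1r, Bnc2, Slc17a7, Gad2, Aqp4 and Mog. This rule chose 212 of 23489 nuclei, of which 22905 reached that UMI minimum, and the shallowest nucleus chosen had 781 UMIs. The study made a photothrombotic (PT) lesion, a focal cortical injury that follows light activation of a circulating dye, in 2 groups of adult mice. The control mice are labelled WT, and the Cxcl12-cKO mice are labelled Col1a2(creER); Cxcl12(flox), a tamoxifen-inducible Cre that is active in fibroblasts, combined with a floxed chemokine gene. Tissue of 1 male and 1 female mouse was pooled in each group, and lesional and parenchymal nuclei got separate tags, were mixed at 75% and 25%, and were captured as 1 library per group. With 1 library per group there was no test between groups, and all intervals below are 95% intervals that cover counting error only.

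Brain endothelial cells form the blood-brain barrier. They are sealed by tight junctions, have few vesicles, and carry nutrients and remove foreign compounds through dedicated transporters, a state that is maintained by Wnt/β-catenin signalling. Vessels outside the barrier, such as those of the dural meninges and other fenestrated beds, lack most of these transporters and make Plvap, the protein of endothelial diaphragms. Along the vascular tree, arterial, capillary and venous cells differ in expression, and the venous end is the main site at which leukocytes attach through adhesion molecules. After injury, vessels within a lesion can be remodelled and are surrounded by fibroblasts, which also make Cxcl12.

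The lesion held 126 endothelial nuclei in the control library and 65 in the library labelled Cxcl12-cKO, and the parenchyma held 8 and 13. Their median depth was 2232 and 2319 UMIs in the lesion and 2169 and 1785 UMIs in the parenchyma, so the groups were of similar depth per nucleus. The summed depth differed far more, at 342728 and 202407 UMIs in the lesion against 23023 and 26134 UMIs in the parenchyma. In the control parenchyma a single nucleus gave 43.0% of the UMIs. The median mitochondrial share was 0.534% and 0.537% in the control library and 1.20% and 1.95% in the library labelled Cxcl12-cKO. No barcode of these nuclei occurred in both libraries, and each nucleus had at least 80.9% of its tag UMIs from the tag of its own region. The targeted gene went against the labels, because Cxcl12 was at 98.1 CPM (UMIs scaled to a sum of 1000000) in lesional fibroblast nuclei of the control library and at 209 CPM in those labelled Cxcl12-cKO. Which exons the floxed allele loses was not stated in those sources, so 3′ counts could not check the deletion, and directions below are between the libraries as labelled.

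The choice rested mostly on several genes at once. All 6 rule genes were seen in 52 nuclei, 5 in 79 nuclei and only 2 in 12 nuclei, and the sum of their UMIs ranged from 4 to 166 with a median of 20.5. Just inside the threshold were 2 nuclei with a sum of 4 and 12 with a sum of 5, and just outside it were 8 nuclei with a sum of 3. Given as a description only, in the control lesion, Cxcl12-cKO lesion, control parenchyma and Cxcl12-cKO parenchyma the growth factor receptor gene Flt1 was at 2498, 2515, 3692 and 5204 CPM. In the same order the transcription factor gene Mecom was at 3388, 3132, 2432 and 2028 CPM and the receptor phosphatase gene Ptprb at 1818, 1739, 1173 and 1416 CPM. The adhesion receptor gene Adgrl4 was at 1602, 1443, 1303 and 3061 CPM and the secreted matrix factor gene Egfl7 at 674, 731, 434 and 842 CPM, and the sixth gene, Cldn5, is described with the tight junctions. A further 99 nuclei were stopped only by UMIs of the 6 genes of other cell types and 1 nucleus only by its mural UMIs. UMIs of other cell types were still present among the nuclei chosen. Of the 212 nuclei, 60 had 10 or more UMIs over marker lists of fibroblasts, myeloid cells, T cells, astrocytes, oligodendrocytes and neurons. Several of the leading values below are also given without these 60 nuclei. UMIs from both sexes were found in 17 nuclei, although the tissue came from 1 female and 1 male mouse.

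The label of endothelial cells held against markers that the rule did not use. Of a further 20 pan-endothelial genes, 20 were detected, and each of the 212 nuclei had a UMI of at least 1 of them. Pecam1, which encodes the platelet and endothelial adhesion molecule CD31, was at 848 CPM in endothelial nuclei, at 4.16 CPM in fibroblast nuclei and at 0 UMIs in the 52 mural nuclei. A Pecam1 UMI was found in 73.6% of endothelial nuclei and in 1.37% of fibroblast nuclei, which became 44.2% and 0.328% after each nucleus was thinned to the UMI minimum. Ranked by their ratio over all other nuclei, the 15 leading genes were Cldn5, Dipk2b, Adgrl4, Ly6c1, Robo4, Tie1, She, Mecom, Flt1, Clec14a, Cyyr1, Ccm2l, Pecam1, Vwf and Ptprb. They include the receptors Flt1 and Tie1, which bind or modulate vascular growth factor and angiopoietin signals, the guidance receptor Robo4 and the clotting protein gene Vwf. Their log2 ratios ranged from 7.98 to 9.92, which describes the choice and is not a finding. Lymphatic endothelium was represented by few nuclei, since 4 or more UMIs of at least 2 of 8 lymphatic genes were found in 3 nuclei of the control lesion and in 0 elsewhere. Dividing nuclei were rare, with 4 or more UMIs of at least 2 cell cycle genes in 3 control and 1 Cxcl12-cKO nuclei, all lesional.

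Endothelial nuclei made up a larger share of nuclei in the lesion than in the parenchyma, and in the lesion a larger share in the control library. In the lesion the share was 1.51% (exact binomial interval 1.26 to 1.80, 126 of 8321 nuclei) in the control library and 0.796% (0.615 to 1.01, 65 of 8169 nuclei) in the library labelled Cxcl12-cKO. This was a log2 ratio of Cxcl12-cKO over control of -0.93 (-1.38 to -0.49). Xist marked nuclei of the female mouse, and those of the male mouse were recognised by the Y-linked genes Ddx3y, Uty, Kdm5d and Eif2s3y. The female and male control mice had shares of 1.30% and 1.36%, and the female and male Cxcl12-cKO mice 0.674% and 0.666%, so the mice of the libraries did not overlap, although the intervals of single mice did. These rest on 45 and 38 control and 23 and 17 Cxcl12-cKO nuclei. A further 35 control and 17 Cxcl12-cKO nuclei had no UMI of either sex, at shares of 2.75% and 1.33%, and 8 in each library had UMIs of both. Values by mouse leave all of these out. Without the 60 nuclei that carried UMIs of other types the log2 ratio was -1.02. Among other classes named by their own markers, mural nuclei were at 0.349% and 0.110% of lesional nuclei, which rest on 29 and 9 nuclei. Excitatory neurons were at 5.40% and 2.74%, fibroblast nuclei at 55.3% and 49.5% and inhibitory neurons at 2.73% and 2.60%. Myeloid nuclei were at 16.5% and 19.3%, astrocyte nuclei at 7.21% and 9.68% and oligodendrocyte nuclei at 2.99% and 3.62%. In the parenchyma the endothelial share was 0.248% (0.107 to 0.488) in the control library and 0.408% (0.217 to 0.697) in the other, in the reverse order but with overlapping intervals. The parenchyma was dominated by excitatory neurons, at 74.2% and 69.5% of nuclei. Fewer cells of a type and a lower recovery of its nuclei cannot be told apart in such shares.

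**Figure D1:**
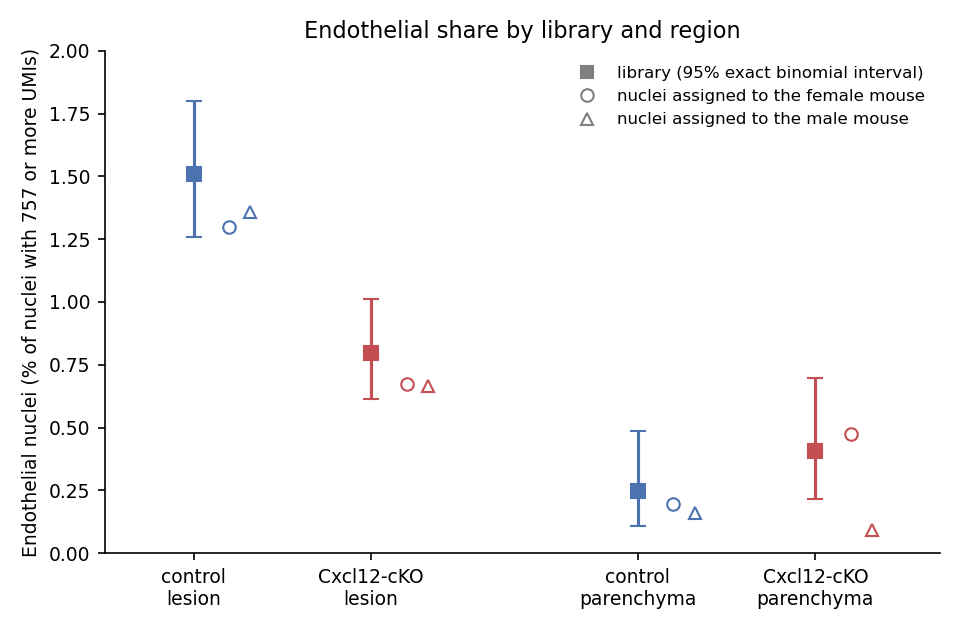
Endothelial nuclei as a percentage of nuclei that reached the UMI minimum, by library and region; squares show the library with its 95% exact binomial interval, circles the nuclei assigned to the female mouse and triangles those assigned to the male mouse. In the lesion both control mice (1.30% and 1.36%) sit above both Cxcl12-cKO mice (0.674% and 0.666%).

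Endothelial nuclei of lesion and parenchyma differed in transporters of the blood-brain barrier. Slco1a4 and Slco1c1 encode organic anion transporters of brain endothelium, and Slco1c1 carries thyroid hormone. Every parenchymal endothelial nucleus, 8 of 8 in the control library and 13 of 13 in the library labelled Cxcl12-cKO, had a UMI of Slco1a4 or Slco1c1. In the lesion such a UMI was found in 57 of 126 nuclei (45.2%, 36.4 to 54.3) and 30 of 65 nuclei (46.2%, 33.7 to 59.0). Without the 60 nuclei with UMIs of other types the lesional shares were 50.6% and 39.5%. With every nucleus thinned to the UMI minimum the expected shares were 34.2% and 32.8% in the lesion against 91.2% and 97.5% in the parenchyma. In excitatory neurons, which should lack Slco1a4, a UMI was found in 0.379% of nuclei at a median of 18622 UMIs, and in astrocytes, which also express it, in 19.5% of nuclei. The lesional share did not differ detectably between the libraries, but the mice within them did not move together. The female and male control mice were at 37.8% and 57.9%, and the female and male Cxcl12-cKO mice at 60.9% and 35.3%. Thinned to the UMI minimum, these shares became 29.1% and 41.7%, and 41.4% and 25.2%.

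**Figure D2:**
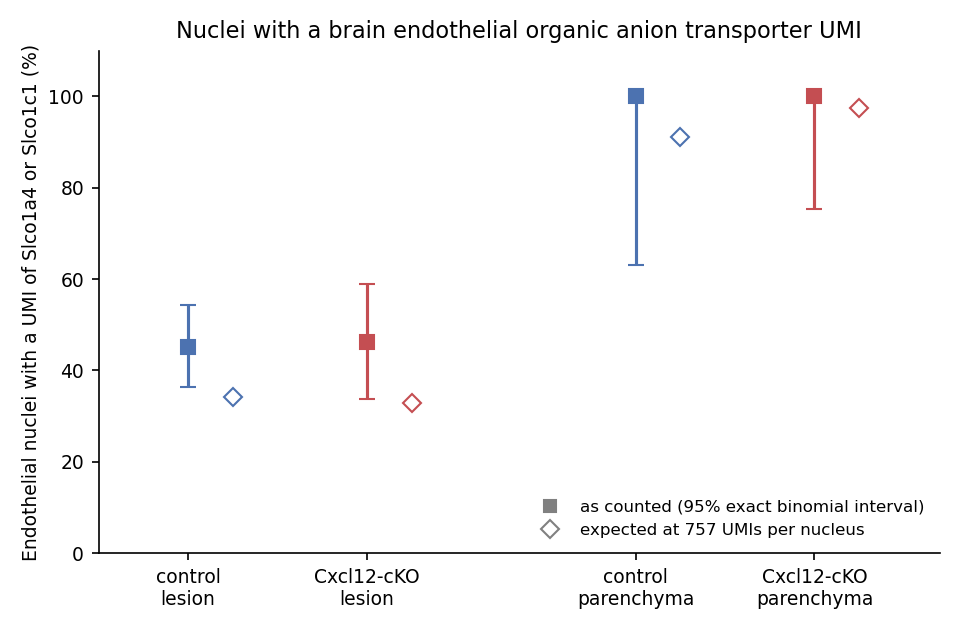
Percentage of endothelial nuclei with a UMI of Slco1a4 or Slco1c1, by library and region; squares are the shares as counted with their 95% exact binomial interval, and diamonds the shares expected if each nucleus were thinned to the UMI minimum. All parenchymal nuclei carried such a UMI, against 45.2% and 46.2% of lesional nuclei.

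The barrier transporters as a list were lower in lesional than in parenchymal endothelial nuclei in both libraries. A list of 24 transporters and related genes summed to 6895 and 7055 CPM in the lesion of the control and Cxcl12-cKO libraries and to 11336 and 18749.5 CPM in the parenchyma. The log2 ratio of lesion over parenchyma was -1.14 (-1.25 to -1.02), at -0.72 in the control library and -1.41 in the other. Without the deepest nucleus of each parenchyma it was -1.43, and without nuclei carrying UMIs of other types -1.11. Of its 16 genes with 40 or more UMIs, 6 were lower in the lesion past 2-fold in both libraries and 1 was higher. Over all 3282 genes so tested, 3.78% were lower and 10.5% were higher past 2-fold in both libraries, and the median log2 ratio was 0.26. The counts were 124 and 345 genes, or 94 and 242 without the nuclei that carried UMIs of other types. Genes were chosen by UMIs summed over both regions, most of them lesional, so a gene could enter with 0 parenchymal UMIs. In the parenchyma 1 UMI stood for 43.4 CPM in the control and 38.3 CPM in the other library. With 1 UMI added to each count the numbers were 166 and 214, and with a gene minimum of 100 UMIs 25 and 173. The part of depth in the uneven counts was not tested. No test was run between regions, because the control parenchyma held only 8 nuclei against the 10 required for one.

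Within this list the genes did not move alike. Slco1a4 (ENSMUSG00000030237) was at 939.5 and 949 CPM in the lesion of the control and Cxcl12-cKO libraries and at 2736 and 4171 CPM in the parenchyma, a log2 ratio of -1.89 (-2.14 to -1.63). Slco1c1 was at 219 and 128 CPM against 608 and 2028 CPM (log2 ratio -2.88), and the taurine transporter gene Slc6a6 was at 376 and 385 CPM against 1694 and 1684 CPM (-2.16, -2.53 to -1.77). For these 3 genes both lesional values lay below both parenchymal ones. The same held for Slc2a1, the glucose transporter GLUT1, at 259.7 and 390.3 CPM against 608 and 957 CPM (-1.38, -1.87 to -0.82), for the zinc transporter gene Slc39a10 (-1.72) and for the proteoglycan gene Spock2 (-2.36). The efflux pumps were different. Abcg2, which encodes the breast cancer resistance protein, was at 849 and 904 CPM in the lesion and 695 and 1148 CPM in the parenchyma (-0.12, -0.54 to 0.36), and Abcb1a, which encodes P-glycoprotein, was at 753 and 790.5 CPM against 695 and 1416 CPM (-0.50, -0.91 to -0.05). Of 3 genes that were higher in the lesion in both libraries, 1 was past 2-fold in both. This was Insr, the insulin receptor, at 802 and 1131 CPM against 304 and 459 CPM (1.22, 0.60 to 2.00).

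Capillary genes were lower in the lesion as well, while tight junction genes and Wnt genes were not as lists. The 12 capillary genes summed to 2308 and 1971 CPM in the lesion and 3996 and 9336 CPM in the parenchyma (-1.65, -1.82 to -1.47), and 6 of the 7 with enough UMIs were lower in both libraries, of which Spock2 and Cxcl12 past 2-fold. Among the genes that were lowest in the lesion was Ly6c1, a surface antigen of capillary endothelium, at 140.1 and 168 CPM against 869 and 2181 CPM (-3.38, -3.85 to -2.91). Tight junction genes summed to 3306 and 3725 CPM against 3649 and 3826 CPM (-0.12, -0.33 to 0.11). Of 10 measured, the occludin gene Ocln (-1.28) and the tricellular junction gene Lsr (-2.19) were lower past 2-fold in both libraries. Cldn5, the claudin of brain endothelium and a gene of the rule, was at 630.2 and 716 CPM in the lesion and 478 and 1454 CPM in the parenchyma, in opposite directions in the libraries. The Wnt list was at 3209.5 and 3547 CPM against 2954 and 3138 CPM (0.12, -0.11 to 0.38). It held genes of opposite direction, 4 of 15 being higher and 2 lower past 2-fold in both libraries. Over all 3282 genes tested between regions, 10.5% were higher and 3.78% lower by this measure. Tcf7l1, a transcription factor of the pathway, was at 423 and 558 CPM against 43.4 and 76.5 CPM. Apcdd1, a target and inhibitor of the pathway, was at 105 and 128 CPM against 217 and 421 CPM. Lef1, the pathway's transcription factor in barrier endothelium, was at 767 and 884 CPM in the lesion and 825 and 842 CPM in the parenchyma (-0.06, -0.50 to 0.46).

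Venous genes were higher in the lesion in both libraries. The 18 venous genes summed to 6389.9 and 9100.5 CPM in the lesion and 1868 and 2793 CPM in the parenchyma, a log2 ratio of 1.64 (1.38 to 1.93), at 1.76 in the control library and 1.69 in the other, and at 1.77 without nuclei carrying UMIs of other types. Of 16 genes with enough UMIs, 8 were higher past 2-fold in both libraries, 0 were lower, and 14 had the same sign in both. Over all 3282 genes, 10.5% were higher past 2-fold in both libraries. Il1r1, the receptor for interleukin-1, was at 939.5 and 1734 CPM in the lesion and 174 and 38.3 CPM in the parenchyma (3.46, 2.37 to 5.23). Tshz2, a zinc finger gene, was at 2372 and 3315 CPM against 608 and 1263 CPM (1.49, 1.09 to 1.96), and Vwf at 648 and 662 CPM against 304 and 306 CPM (1.05, 0.36 to 1.95). In each of these genes both lesional values lay above both parenchymal ones. The lipocalin gene Lcn2, with 91 UMIs in the lesion, and Selp, the P-selectin that tethers leukocytes, with 67 UMIs, were not seen in the parenchyma. Set against a floor of 3 counts over both parenchymas, Lcn2 was 2.74-fold and Selp 2.01-fold higher in the lesion. These folds leave out the counting error of the lesional values. Vcam1, an adhesion molecule for leukocytes, went in opposite directions in the libraries, since all 15 of its parenchymal UMIs came from 1 nucleus of the library labelled Cxcl12-cKO.

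Several genes of the vascular basement membrane and both neuropilin genes were also higher in the lesion. Of 16 measured basement membrane genes, 6 were higher past 2-fold in both libraries and 1 was lower, with a summed log2 ratio of 0.68 (0.46 to 0.91). The shares over all 3282 genes were 10.5% higher and 3.78% lower. Col4a1 and Col4a2, the main chains of type IV collagen, were at 694 and 795 CPM and at 481 and 583 CPM in the lesion, against 347 and 421 CPM and 130.3 and 153 CPM in the parenchyma, with log2 ratios of 0.89 and 1.77. Lamc1, a laminin chain, was at 257 and 262 CPM against 0 and 38.3 CPM. Col15a1 was at 189.7 and 198 CPM against 0 UMIs, 3.16-fold above the floor of 3 parenchymal counts. Agrn, which encodes agrin, was the gene in the list that was lower, at 87.5 and 84.0 CPM against 304 and 191 CPM. The neuropilin genes Nrp1 and Nrp2, whose products are co-receptors for vascular growth factors and semaphorins, both differed. Nrp1 was at 724 and 1033 CPM in the lesion and 261 and 229.6 CPM in the parenchyma (1.72, 0.96 to 2.74), and Nrp2 at 785 and 894 CPM against 174 and 229.6 CPM (1.95, 1.13 to 3.09). Kdr, the main growth factor receptor, was at 382 and 331 CPM against 174 and 268 CPM (0.64, -0.17 to 1.72), which was within counting error. Of the 8 measured genes of the VEGF and angiopoietin list, Nrp1 and Nrp2 were the 2 past 2-fold in both libraries. The angiopoietin receptor gene Tek had a log2 ratio of 0.15 (-0.37 to 0.77) and the related Tie1 one of -0.37 (-1.18 to 0.68). Genes of tip cells, the leading cells of vessel sprouts, were seldom counted, and 2 of 15 had 40 or more UMIs.

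Some genes were seen in many lesional nuclei and in 0 of the 21 parenchymal nuclei. Ranked by the smaller of the 2 libraries' ratios, the 10 genes that stood highest in the lesion were Thsd7a, Adam12, Sntb2, Nhs, Ypel2, Cped1, Piezo2, Gpc6, Slco3a1 and Tspan18, and none of them had a UMI in the parenchyma. Their ratios were thus set by the lesional counts, the summed depths and the fraction of a UMI added to each count. The ranking therefore gives no size of difference for these genes. Sntb2, a syntrophin gene, was at 356 and 637 CPM in the lesion, 7.54-fold above the floor of 3 parenchymal counts. Thsd7a, which encodes a membrane protein of endothelial migration, was at 452 and 380.4 CPM, 6.97-fold above it. The mechanosensitive channel gene Piezo2 was at 277 CPM in both libraries, 4.54-fold above it. With the lesion's counting error included, the lower limits of their log2 ratios were 2.61, 2.49 and 1.87. Adam12, Cped1 and Gpc6 were no higher in endothelial nuclei than in all other nuclei (log2 ratios -0.10, -0.39 and -2.04). Piezo2 was at 254 CPM over all endothelial nuclei, 293 CPM in fibroblast and 365 CPM in oligodendrocyte nuclei, and lower in the other classes. The fibroblast marker list, of whose 12 genes 6 had no UMI in the parenchyma, stood at 1564 and 944 CPM in lesional endothelial nuclei and 391 and 459 CPM in parenchymal ones, and the myeloid list, of whose 12 genes 8 had none there (Cx3cr1, P2ry12 and Mrc1 among them), at 747 and 1136 CPM against 261 and 76.5 CPM. Their part in these differences was not tested. Among the 10 genes lowest in the lesion, Hs3st4 and Egfem1 had 39 and 15 UMIs in 1 nucleus of the control parenchyma, Slc24a2 had 17 in 2 nuclei there and Ncam1 22 in 3. The neuron list was at 4474 CPM in the control parenchyma, 650.5 CPM in the other parenchyma, and 893 and 623 CPM in the lesion. The others were Rundc3b, Ly6c1, Palm, Arl4a, Crip2 and Cxcl12. The mural list was at 385 and 178 CPM in the lesion and 304 and 957 CPM in the parenchyma, where 30 of its 32 UMIs were of the pericyte gene Rgs5 and 12 of its 14 genes, Pdgfrb among them, had none.

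**Figure D3:**
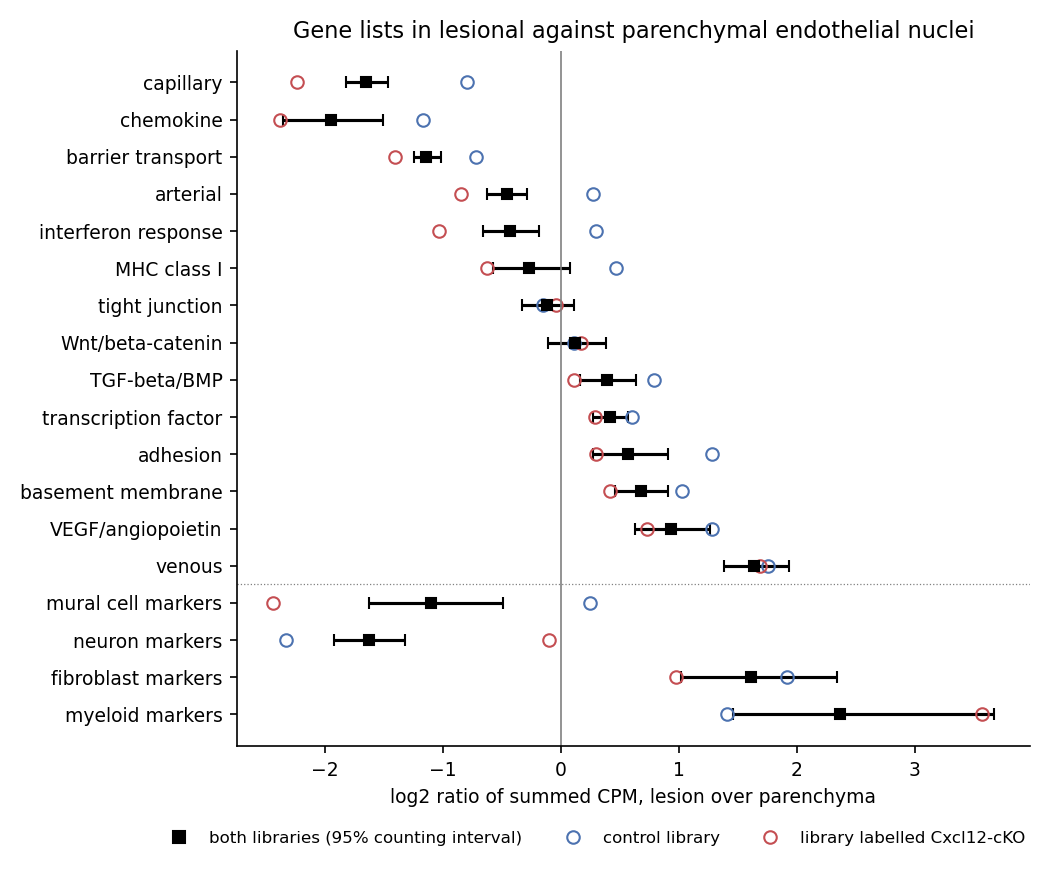
Log2 ratio of summed CPM of each gene list in lesional over parenchymal endothelial nuclei; black squares pool both libraries with a 95% counting interval, blue circles show the control library and red circles the library labelled Cxcl12-cKO. Capillary and barrier transport lists lie below 0 and the venous list above 0 in both libraries, whereas the arterial, interferon response and MHC class I lists lie on opposite sides, and the 4 lists below the dotted line are markers of other cell types.

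Lesional endothelial nuclei differed among themselves. They were divided into 87 with a UMI of Slco1a4 or Slco1c1 and 104 without, a division chosen after the values had been seen and used here only to describe. Of the 191 lesional nuclei, 21 lay at the edge with exactly 1 UMI and 66 had 2 or more. The groups had similar depth, with medians of 2356 and 2218 UMIs. Pan-endothelial genes were at 8606 and 8347 CPM (log2 ratio of nuclei with over nuclei without 0.04, -0.04 to 0.13), so the nuclei without the transporters were no less endothelial by this list. The other genes of the barrier list were at 8316 and 3522 CPM (1.24, 1.13 to 1.35), and the tight junction list was at 5068 and 1975 CPM (1.36, 1.22 to 1.51). Cldn5 was at 1195 and 169.6 CPM, Slc2a1 at 561 and 74.2 CPM, and Abcb1a at 1209.8 and 357 CPM. Abcb1a and Cldn5, whose libraries did not move together between regions, were thus both higher in the nuclei with the transporters.

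The Wnt list was at 4263 CPM in lesional nuclei with the transporters and 2476 CPM in those without (0.78, 0.65 to 0.92). Lef1 was at 1458 CPM (382 UMIs) in lesional nuclei with the transporters and 212 CPM (60 UMIs) in those without. Apcdd1 was at 218 and 17.7 CPM, the negative regulator Nkd1 at 164 and 3.53 CPM, and Tnfrsf19, another gene of the pathway, at 206 and 17.7 CPM. Other genes of the list went the other way, with Tcf7l1 at 366 and 572 CPM, the related Tcf7l2 at 324 and 409.7 CPM, the co-receptor gene Lrp5 at 111 and 198 CPM and the receptor-associated Tspan12 at 84.0 and 138 CPM. The venous list was at 10373 and 4641 CPM (1.16, 1.06 to 1.26), and single genes of it went either way. Il1r1 was at 2282 CPM in nuclei with the transporters and 265 CPM in those without, Lcn2 at 336 and 10.6 CPM, the chemokine-scavenging receptor gene Ackr1 at 118 and 17.7 CPM, and Vwf at 1008 and 325 CPM. Plvap, which is also in the venous list, was at 11.4 CPM (3 UMIs) in nuclei with the transporters and 276 CPM (78 UMIs in 34 nuclei) in those without. Selp was at 80.1 and 162 CPM, and 19 of its UMIs in the second group came from 1 nucleus.

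The nuclei without the transporters were marked by another set of genes. Cmah, which encodes a sialic acid hydroxylase, was counted with 119 UMIs in 22 of the 104 nuclei and with 2 UMIs in the 87 others, and the muscarinic receptor gene Chrm2 with 69 UMIs in 20 nuclei against 2. Dysf, which encodes the membrane repair protein dysferlin, was at 548 and 53.4 CPM in nuclei without and with the transporters, Pcdh17, a protocadherin gene, at 480.4 and 38.2 CPM, and the prostaglandin transporter gene Slco2a1 at 466 and 95.4 CPM. Matrix genes were higher in these nuclei, with Col15a1 at 332 and 42.0 CPM and Col4a1 at 996 and 447 CPM, as was Piezo2 at 445 and 95.4 CPM. These genes were spread over 20 to 65 of the nuclei without the transporters each, whereas Spag16, Adamts20 and Pdzrn4, which were also among the 15 with the largest ratios, had 55, 45 and 78 UMIs in 1 nucleus. The permeability list, which holds Plvap and caveolar genes, was at 561 CPM with and 1137 CPM without the transporters, and the arterial list at 3633 and 5585 CPM. Of the markers of other cell types, the myeloid list was at 599 and 1162 CPM, the fibroblast list at 1122 and 1529 CPM, and the astrocyte list at 721 and 374 CPM in nuclei with and without the transporters. The lists with the widest gaps had few UMIs. The lymphatic list was at 95.4 and 463 CPM (25 and 131 UMIs, -2.25, -2.96 to -1.65), the T cell list at 22.9 and 169.6 CPM (6 and 48 UMIs) and the cell cycle list at 19.1 and 148 CPM (5 and 42 UMIs). Their part in the division was not tested.

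The comparison between regions was repeated within nuclei that carried the transporters. Lesional nuclei with the transporters and the 21 parenchymal nuclei had Abcb1a at 1209.8 and 1078 CPM, Cldn5 at 1195 and 997 CPM, Slc2a1 at 561 and 793 CPM, and Lef1 at 1458 and 834 CPM. The barrier list, which was selected on through its 2 transporters, was still lower in the lesion in these nuclei, but at a log2 ratio of -0.52 (-0.64 to -0.40) in place of -1.14, and at -0.33 (-0.46 to -0.18) without the 2 transporters. Piezo2 was 1.56-fold above the floor of 3 parenchymal counts in lesional nuclei with the transporters, in place of 4.54-fold for all lesional nuclei. The lower limits of its log2 ratio were 0.24 and 1.87. Plvap was at 11.4 CPM against 20.3 CPM, and Col15a1, at 42.0 CPM against 0 UMIs, could not be set apart from the parenchyma at this depth. The venous list went further apart, at 10373 CPM against 2359.8 CPM (2.13, 1.87 to 2.42), and Il1r1 was at 2282 CPM against 102 CPM (4.35, 3.26 to 6.12). Slc6a6 (481 against 1688 CPM), Spock2 (534 against 1383 CPM), Ly6c1 (191 against 1566 CPM) and Cxcl12 (149 against 1179.9 CPM) were again lower in the lesion.

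**Figure D4:**
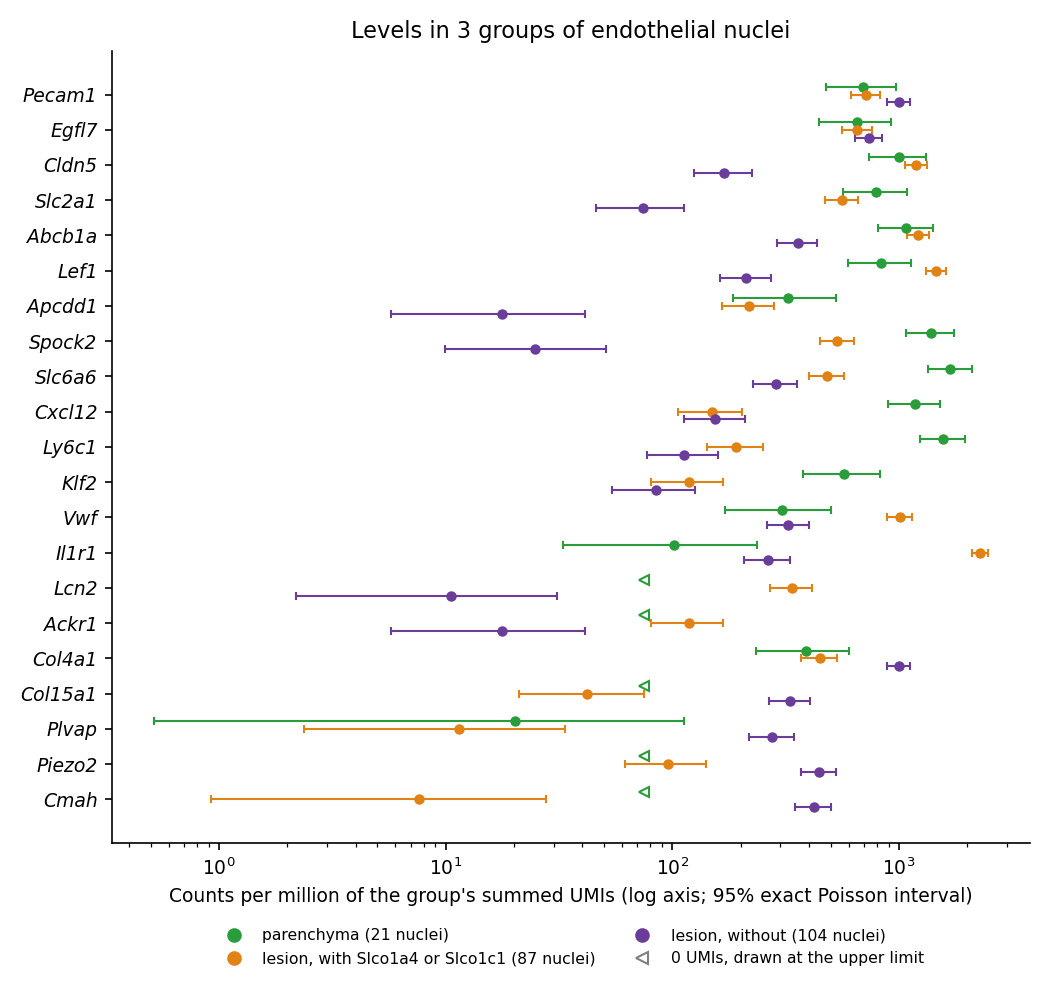
CPM of 21 genes in parenchymal endothelial nuclei (green) and in lesional endothelial nuclei with (orange) or without (purple) a UMI of Slco1a4 or Slco1c1, on a log axis with 95% exact Poisson intervals; open triangles mark genes with 0 UMIs at their upper limit. Cldn5, Slc2a1 and Lef1 are low in the purple group, Plvap, Piezo2 and Cmah are high in it, Cxcl12 and Ly6c1 are high in the green group, and Il1r1 and Lcn2 are high in the orange group.

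Cxcl12, the gene targeted in the study, was higher in parenchymal than in lesional endothelial nuclei. It was at 149 and 158 CPM in the lesion of the control and Cxcl12-cKO libraries and at 695 and 1607 CPM in the parenchyma, with a log2 ratio of lesion over parenchyma of -2.96 (-3.46 to -2.44), at -2.25 and -3.34 in the libraries. A Cxcl12 UMI was found in 24 of 126 (19.0%) and 16 of 65 (24.6%) lesional nuclei and in 6 of 8 (75.0%) and 10 of 13 (76.9%) parenchymal nuclei. With nuclei thinned to the UMI minimum the expected shares were 8.54% and 8.50% in the lesion and 48.7% and 59.6% in the parenchyma, and in excitatory neurons, which should lack the gene, 0.203%. In the lesion the log2 ratio of Cxcl12-cKO over control was 0.10 (-0.60 to 0.75), so no difference between the libraries was detectable at this depth. In lesional fibroblast nuclei it was 1.09 (1.01 to 1.18) and in lesional astrocyte nuclei 0.36 (0.11 to 0.61), and the difference between cell types was not tested. The receptors were scarcely counted. Cxcr4 had 3 UMIs in 3 control lesional nuclei and 0 elsewhere, and the scavenging receptor gene Ackr3 had 4 UMIs in 4 control nuclei and 0 in nuclei labelled Cxcl12-cKO. In the 65 lesional nuclei labelled Cxcl12-cKO, 0 UMIs allow up to 18.2 CPM, which is above the 8.75 CPM of either receptor in the control lesion.

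Between the libraries, few genes of lesional endothelial nuclei differed by 2-fold. Of 3056 genes with 40 or more UMIs, 59 were higher and 145 lower past 2-fold in the library labelled Cxcl12-cKO, or 1.93% and 4.74%, and the median log2 ratio was 0.01. Without the nuclei that carried UMIs of other types the counts were 37 and 47. Counted without a gene minimum in the kept nuclei, 25 of the 59 and 49 of the 145 remained past 2-fold in the same direction among the 89 control and 43 Cxcl12-cKO nuclei then kept. A single nucleus held at least 25% of the UMIs of 10 of the higher and 43 of the lower genes. The ratio had the same sign in the female and the male mice for 1582 of the 3056 genes.

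Several of the genes that stood furthest apart are known from other cell types. The 10 highest in the library labelled Cxcl12-cKO with the same sign in both mice were Hpgds, Arhgap24, Blnk, Sirpa, Igf1, Atp6v0d2, Vcam1, Lgals3, Mitf and Col6a6. Hpgds, Sirpa, Atp6v0d2 and Lgals3 are known from macrophages, and the myeloid list was at 747 CPM in the control and 1136 CPM in the Cxcl12-cKO lesional nuclei. Of the 10, only Vcam1 and Col6a6 remained past 2-fold without the nuclei that carried UMIs of other types, at log2 ratios of 1.78 (1.24 to 2.36) and 1.60 (0.84 to 2.41). Col6a6, a collagen VI chain, had 23 and 43 UMIs, 20 of them in 1 nucleus. The 10 lowest were Adamts20, Adarb2, Luzp2, Nxph1, Pdzrn4, Gpc5, Runx2, Reln, Plce1 and Slc35f1. Adarb2 and Nxph1 are known from interneurons and Gpc5 from astrocytes, and the astrocyte list was at 697 CPM in the control and 277 CPM in the Cxcl12-cKO nuclei. Of these 10 genes, Adamts20, Adarb2, Nxph1, Pdzrn4, Gpc5 and Runx2 had 45, 34, 29, 78, 34 and 60 of their control UMIs in 1 nucleus, and only Luzp2, Reln and Adarb2 remained past 2-fold lower in the nuclei kept, with Adarb2 then at 3 and 0 UMIs and an interval that left out 0 for Reln alone (-5.55 to -0.33). Their part in the difference between the libraries was not tested.

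Among the adhesion genes, Vcam1 (ENSMUSG00000027962) was higher in the nuclei labelled Cxcl12-cKO. It was at 155 CPM (53 UMIs in 25 of 126 nuclei) in the control lesion and 534 CPM (108 UMIs in 18 of 65 nuclei) in the Cxcl12-cKO lesion, a log2 ratio of 1.78 (1.30 to 2.29). By mouse it was at 86.2 CPM in the female and 211 CPM in the male control mouse and at 538 and 590.4 CPM in the female and male Cxcl12-cKO mice, so the mice of the libraries did not overlap. The shares of nuclei with a Vcam1 UMI, 19.8% (13.3 to 27.9) in the control and 27.7% (17.3 to 40.2) in the Cxcl12-cKO lesion, had overlapping intervals. With nuclei thinned to the UMI minimum 8.97% and 16.3% of nuclei would have a Vcam1 UMI. The ratio remained at 1.77 without the nucleus with the most Vcam1 in each library, was 1.36 with each nucleus weighted alike, and was 1.22 in nuclei with no UMI of the other cell type genes in the rule. In other classes of the lesion the log2 ratio was 0.37 (0.18 to 0.56) in fibroblasts, 0.66 (0.36 to 0.97) in astrocytes and -0.98 (-1.51 to -0.47) in myeloid nuclei, and the difference between cell types was not tested. Selp was at 84.6 and 188 CPM (29 and 38 UMIs, 19 of them in 1 Cxcl12-cKO nucleus), and the mice overlapped, at 43.1 and 129.8 CPM against 118 and 67.1 CPM. Of 8 adhesion genes with enough UMIs, these 2 were past 2-fold, beside 1.93% of all 3056 genes that were higher past 2-fold. Pecam1 was at 861 and 865 CPM (0.01, -0.27 to 0.28).

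Venous genes as a list were somewhat higher in the nuclei labelled Cxcl12-cKO. The list was at 6389.9 and 9100.5 CPM (0.51, 0.42 to 0.60), with 15 of its 16 measured genes above 0 and 2 of them, Vcam1 and Selp, past 2-fold. Il1r1 was at 939.5 CPM in the control and 1734 CPM in the Cxcl12-cKO library, at 759 and 1225 CPM in the female and male control mice and 1769.8 and 2348 CPM in the female and male Cxcl12-cKO mice. The log2 ratio of Il1r1 was 0.88 (0.66 to 1.11), 0.47 (0.21 to 0.73) without nuclei carrying UMIs of other types, and 0.74 (0.65 to 0.83) in lesional fibroblast nuclei. Of its 351 UMIs in the Cxcl12-cKO lesion, 78 came from 1 nucleus. An Il1r1 UMI was found in 43.7% (34.8 to 52.8) of control and 50.8% (38.1 to 63.4) of Cxcl12-cKO nuclei, with overlapping intervals. Against this, the barrier list was at 6895 and 7055 CPM (0.03, -0.06 to 0.13, and -0.23, -0.34 to -0.12, without nuclei carrying UMIs of other types), the tight junction list at 3306 and 3725 CPM (0.17, 0.04 to 0.31) and the Wnt list at 3209.5 and 3547 CPM (0.14, 0.01 to 0.28). Within the barrier list, 2 amino acid transporter genes were lower past 2-fold. Slc7a5, which carries large neutral amino acids, was at 289 and 114 CPM (-1.32, -2.07 to -0.68), at 155 and 527 CPM in the female and male control mice and 144 and 93.9 CPM in the female and male Cxcl12-cKO mice, and the male control mouse stood above the other mice. Slc7a1, which carries cationic amino acids, was at 189.7 and 79.0 CPM. It was at 181 and 251 CPM in the female and male control mice and 26.2 and 67.1 CPM in the Cxcl12-cKO mice. These values did not overlap, but those of the Cxcl12-cKO mice rest on 2 and 5 UMIs. The interval of the male Cxcl12-cKO mouse (21.8 to 157) overlapped that of the female control mouse (112 to 277).

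Interferon-response genes as a list were slightly lower in the nuclei labelled Cxcl12-cKO. The 39 genes found in the files summed to 2702 and 2179 CPM in the lesion (-0.31, -0.48 to -0.15). Of 12 with enough UMIs, 10 were below 0 and 1, the RNA sensor gene Ifih1, was past 2-fold, with 46 and 7 UMIs. The ratio was -0.26 in the female mice, -0.63 in the male mice, -0.13 with each nucleus weighted alike, and -0.15 (-0.36 to 0.06) without nuclei carrying UMIs of other types, which was within counting error. In other lesional classes it was -0.37 (-0.41 to -0.33) in myeloid nuclei, -0.15 (-0.18 to -0.13) in fibroblasts and -0.26 (-0.33 to -0.19) in astrocytes. Inhibitory neurons were at -0.37 (-0.56 to -0.18) and oligodendrocytes at -0.07 (-0.20 to 0.06), whereas excitatory neurons went the other way, at 0.20 (0.04 to 0.37). The difference between cell types was not tested. Genes of antigen presentation by MHC class I did not follow, at 1412 and 1591 CPM (0.17, -0.04 to 0.38). Sox17, a transcription factor of endothelial identity and arterial cells, had 26 UMIs in 22 control and 3 UMIs in 3 Cxcl12-cKO lesional nuclei, did not reach the minimum of 40 UMIs, and was chosen after its values were seen. By mouse it was at 112 and 24.3 CPM in the female and male control mice and 26.2 and 13.4 CPM in the female and male Cxcl12-cKO mice, so the mice overlapped. Its log2 ratio was -2.16 (-4.72 to -0.65), and -3.19 (-9.11 to -1.13) without nuclei carrying UMIs of other types.

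**Figure D5:**
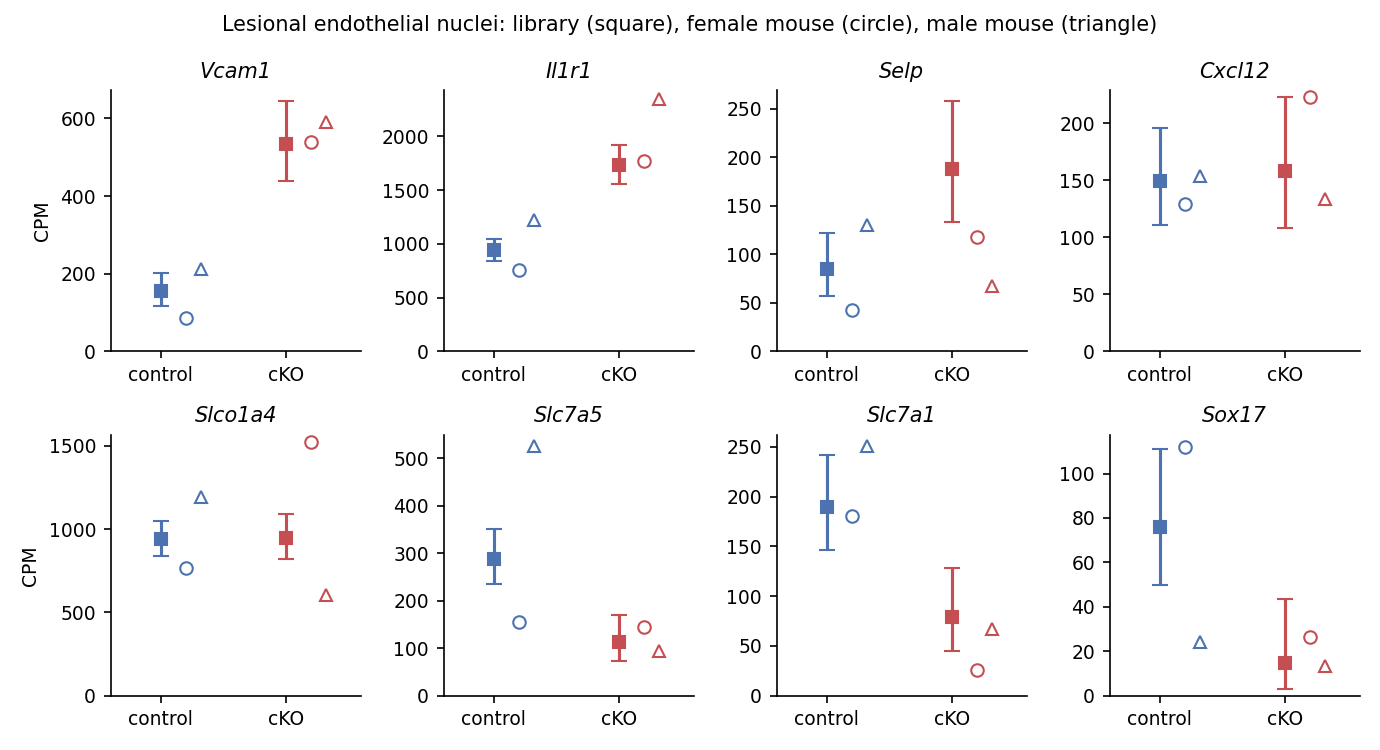
CPM of 8 genes in lesional endothelial nuclei of the control library (blue) and the library labelled Cxcl12-cKO (red); squares show the library with its 95% exact Poisson interval, circles the female and triangles the male mouse, and each vertical axis starts at 0. The values of Vcam1, Il1r1 and Slc7a1 separate the mice of the libraries, with Slc7a1 at 2 and 5 UMIs in the Cxcl12-cKO mice, whereas those of Selp, Cxcl12 and Slco1a4 do not.

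Of the remaining lists of endothelial programmes, most differed little between the libraries. The basement membrane list was at 5465 and 5499 CPM (0.01, -0.10 to 0.12) with 0 of 16 genes past 2-fold, the arterial list at 4534 and 4837 CPM (0.09, -0.02 to 0.21), and the TGF-β and BMP list at 4088 and 4155 CPM (0.02, -0.10 to 0.15). The transcription factor list was at 10259 and 10647 CPM (0.05, -0.02 to 0.13) with 0 of 15 genes past 2-fold, and the VEGF and angiopoietin list at 3320.4 and 3705 CPM (0.16, 0.02 to 0.29), in which the lymphangiogenic factor gene Vegfc was lower past 2-fold with 59 and 16 UMIs but in opposite directions in the female and male mice (-5.46 and 0.49). The Notch list was at 581 and 692 CPM (0.25, -0.07 to 0.57), the vascular tone list at 1698 and 1976 CPM (0.22, 0.03 to 0.40), the permeability list at 823 and 924 CPM (0.17, -0.11 to 0.44) and the mesenchymal transition list at 2328 and 2421 CPM (0.06, -0.11 to 0.22). The capillary list was at 2308 and 1971 CPM (-0.23, -0.40 to -0.05), with Slc7a5 and Rgcc, a cell cycle regulator gene, past 2-fold lower. The tip cell list was at 557 and 489 CPM (-0.18, -0.55 to 0.17). Female and male mice also had opposite signs for the arterial (-0.36 and 0.55), Notch (-0.21 and 0.78) and permeability lists (-0.23 and 0.58). The same held for the tip cell (-0.47 and 0.64), TGF-β and BMP (-0.17 and 0.20) and basement membrane lists (-0.15 and 0.25), and for the VEGF and angiopoietin list (-0.04 and 0.26). Some lists with few UMIs differed by about 2-fold or more. The lymphatic list was at 379 and 128 CPM (130 and 26 UMIs, -1.54, -2.23 to -0.95) beside up to 45 UMIs in 1 nucleus, and the cell cycle list at 108 and 49.4 CPM (37 and 10 UMIs, -1.08, -2.30 to -0.09), with opposite signs in the female and male mice (-1.25 and 0.73). Of the markers of other cell types, the mural list was at 385 and 178 CPM (-1.10, -1.69 to -0.57) and the fibroblast list at 1564 and 944 CPM (-0.73, -0.97 to -0.49). The T cell list was at 125 and 54.3 CPM (-1.16, -2.31 to -0.23), with opposite signs in the female and male mice (-3.30 and 1.86). The part of these marker lists in the differences between the libraries was not tested.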

How the data were processed

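The authors ran Cell Ranger 9.0.0 on the GRCm39 genome and deposited, for each region of each library, a filtered matrix of whole-number UMI counts per gene and nucleus (33696 gene features), without normalization. The number of per-sample columns left unused was 0. From these counts, UMIs of the chosen nuclei were summed by library and region and scaled to CPM of that sum. Log2 ratios had 0.5 UMIs added. Intervals of ratios were exact conditional binomial, those of CPM exact Poisson and those of shares Clopper-Pearson. A gene was called past 2-fold among genes with 40 or more UMIs over the nuclei compared, with the rule's genes, sex-linked and mitochondrial genes left out. Where a group held 0 UMIs, folds were set against 3 counts over the group, and they leave out the counting error of the other group. Thinned shares were expected hypergeometric shares at the UMI minimum, which is the lowest 2.5 percentile of UMIs over all barcodes and follows the percentile filter that the study describes.

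Other classes needed 4 or more UMIs of at least 2 of their marker genes and at most 1 UMI of the 6 endothelial genes. The nuclei, gene lists and tests were chosen with earlier results of these data known. Named genes were the 15 leading genes with a UMI in at least 20% of nuclei, up to 6 genes with the most UMIs in a list and others needed for their role, the rule's genes, Cxcl12, Cxcr4 and Ackr3, and for each comparison the 10 highest and 10 lowest genes with the same sign in both mice or both libraries. Doublets were not called. Alternatives were other thresholds of the rule, a minimum of 1000 UMIs, removal of the highest 2.5% of barcodes by UMIs, genes or mitochondrial share, nuclei of 1 mouse, other scalings, pseudocounts and gene minimums. Added after the data had been seen were the removal of nuclei with 10 or more UMIs of other types or of single deep nuclei, equal weights and a minimum of 100 UMIs for regions, and nuclei with the 2 transporters alone. Genes singled out in the division of lesional nuclei by transporters were chosen after their values were seen, as the 15 with the largest ratios in each direction and genes of the lists. The scripts were tested on simulated data. Computation was in Python 3.11.15 with scipy 1.17.1, numpy 2.4.6 and pandas 2.3.3, and plots were drawn with matplotlib 3.10.9. An edgeR test between regions had been planned but was not made, because it required 10 nuclei in each region of each library.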

Additional observations from a re-analysis of the deposited data

Results flagged for a closer look

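Several results ran in opposite directions in the mice or the libraries, and none of these differences was tested. Between the libraries as labelled, the female and male mice had log2 ratios in lesional endothelial nuclei of 0.78 and -0.17 for Cxcl12, 0.98 and -0.97 for Slco1a4, 1.39 and -0.86 for Selp, and 0.52 and -0.21 for the summed barrier transporters. The share of lesional nuclei with Slco1a4 or Slco1c1 was 23.1 percentage points higher in the female and differed by -22.6 percentage points in the male Cxcl12-cKO mouse from the control mouse of the same sex. Thinned to the UMI minimum, the shares were 29.1% in the control and 41.4% in the Cxcl12-cKO female mouse and 41.7% and 25.2% in the male mice, still in opposite directions. Between lesion and parenchyma, the control library and the library labelled Cxcl12-cKO had log2 ratios of 2.85 and -0.15 for Vcam1, 0.71 and -3.45 for Klf2, a transcription factor gene induced by flow, and 0.34 and -1.04 for Cldn5. The arterial list was at 0.27 and -0.85, the interferon-response list at 0.30 and -1.03, the MHC class I list at 0.47 and -0.63 and the mural list at 0.25 and -2.44. The parenchymal values rest on 8 and 13 nuclei.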

How the results depend on the processing

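The lower endothelial share of lesional nuclei in the library labelled Cxcl12-cKO kept its direction in all 10 alternatives, at log2 ratios between -1.04 and -0.80. The higher share in the lesion than in the parenchyma was 1.82 on the log2 scale, 3.0 in male mice, 2.61 in the control library and 0.96 in the other. Between the libraries, the 59 genes higher past 2-fold became 29 with no UMI of other classes, 29 in male mice, 37 without nuclei carrying UMIs of other types, and 209, 13 and 2359 with a gene minimum of 20, 80 and 1 UMIs. The 145 lower genes became 78, 68 and 47 in the first 3 of these, 74 in female mice, and 343, 58 and 2522 with those gene minimums. The interferon list was at -0.63 in male mice and -0.13 with nuclei weighted alike, and Vcam1 at 1.22 with no UMI of other classes and 2.59 in female mice. Between regions, the 345 genes higher in the lesion became 163 in female and 67 in male mice, 214 with a pseudocount of 1, 173 with a gene minimum of 100, and 180 in nuclei with Slco1a4 or Slco1c1. The 124 lower genes became 44 in female mice, 25 with that gene minimum and 33 in those nuclei. The barrier list was at -1.35 without nuclei of both sexes' UMIs, -1.38 in female and -1.61 in male mice, -1.37 with nuclei weighted alike, -1.43 without the deepest parenchymal nuclei, -0.52 in nuclei with the 2 transporters, -0.72 in the control library and -1.41 in the other. The venous list was at 1.98 with no UMI of other classes, 1.13 in female and 3.65 in male mice, and 2.13 in nuclei with the 2 transporters. A higher or lower gene minimum changes the genes tested by its construction, and for the other settings the cause was not tested. Of 215 alternative values, 158 stayed within the counting interval of the value reported, or within 1.5 times of a count.

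No paired analysis was possible because each group was 1 library, so that no test between groups could be made. Values within each library and for the female or male mice alone, given above, leave out 1 library or 1 mouse of each group. Other settings of the region test (DESeq2, its size factors, no library term and no gene filter) were not run, because that test was not made. The 8 and 13 parenchymal nuclei limit every comparison between regions, and genes with 0 UMIs there have only lower bounds.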
